A study of Mus musculus with 9 samples.

Results

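Glycolysis and HIF response genes are 37 named mouse genes: transporters of glucose and lactate, the enzymes and regulators of glycolysis, transcripts known to be induced when oxygen is short, and the genes of the oxygen-sensing machinery. Their rows were found by gene symbol among the 43432 Ensembl genes of a table of read counts. All 37 were found, each as 1 row, and all 37 passed the filter on low counts. RNA was sequenced from mouse Tregs, regulatory T cells of the CD4 lineage that are defined by Foxp3 and hold immune responses in check. They were sorted as CD62L-high cells, stimulated on beads through CD3 and CD28 and grown with 2000 U/ml interleukin-2 to day 4. The 4 Ezh2-deficient cultures were Ezh2-fl/fl, and the 5 WT cultures were Ezh2-fl/+ in replicate 1 and Ezh2-+/+ in replicates 2 to 5. All 9 also carried Foxp3-Cre-GFP, a Cre driven by Foxp3, and the reporter R26-LSL-RFP, so no culture lacked Cre. All mice were C57BL/6, and ages are not given in the labels. Ezh2 encodes the histone H3 methyltransferase of the Polycomb system, which keeps genes silent. Values per library are listed in the order of the replicate numbers.

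Glycolysis splits glucose to pyruvate in the cytosol, and activated T cells are known to run it at a high rate and to export lactate even with oxygen present. HIF is a transcription factor made of an alpha subunit, encoded by Hif1a or Epas1, and a partner, Arnt. With oxygen present, the prolyl hydroxylases encoded by Egln1 to Egln3 mark the alpha subunit for the ubiquitin ligase that contains VHL, and it is degraded. When oxygen is short the subunit persists and induces glucose transporters, nearly every enzyme of glycolysis, Vegfa, Bnip3, Egln3 and Pdk1, so glycolytic genes are themselves HIF targets. In T cells HIF also responds to antigen receptor and mTOR signals. These transcripts report on the RNA only and not on metabolic flux or on HIF protein.

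Libraries held 33718125 to 62201921 counts in the Ezh2-deficient and 32469450 to 59796319 counts in the WT group. Ezh2 (chromosome 6) was at 153, 167, 164 and 159 CPM in Ezh2-deficient replicates, against 268, 332, 288, 234 and 360 CPM in WT replicates, where CPM are counts scaled to a common library size with trimmed means of M-values. Its log2 fold change was -0.88 (SE 0.11, adjusted p = 0.000363), with no overlap between groups, and a count over the whole gene includes exons outside the floxed part. Foxp3 was higher in the Ezh2-deficient libraries, at 1647 to 1968 CPM against 1293 to 1542 CPM in WT (log2 fold change 0.30, adjusted p = 0.0313). Cd4 was at 392 to 434 CPM in the Ezh2-deficient and 450 to 487 CPM in the WT libraries (log2 fold change -0.19, adjusted p = 0.0644). The groups did not overlap for either gene. They did for the other Treg markers Il2ra, Ikzf2, Ctla4 and Cd3e (adjusted p = 0.22 to 0.555).

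Between genotypes, only 2 of the 37 genes passed the test. Epas1, which encodes HIF-2 alpha, was 3.44-fold higher in Ezh2-deficient Tregs, and Eno3, which encodes the muscle-type enolase, was 3.28-fold lower. The other 35 genes, among them Hif1a, Vhl, Slc2a1, Hk2, Ldha, Vegfa and Bnip3, did not pass. The test was edgeR's two-sided quasi-likelihood test over 13685 genes, with Benjamini-Hochberg adjusted p under 0.05, and each log2 fold change is that of Ezh2-deficient against WT cells. Over all tested genes 21.9% passed, 13.1% higher and 8.8% lower, against 5.41% of these 37 genes. At an unadjusted p under 0.05, 4 of the 37 differed, against 37% of all tested genes. Libraries of the genotypes were fully apart for 3 of the 37 genes, Epas1 (higher, as for 12.5% of all tested genes) and Eno3 and Gapdh (lower, as for 8.69%), or for 21.2% of all tested genes in either direction. In bulk RNA, fewer cells of a type and less RNA per cell cannot be told apart.

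The small number that passed went with a large spread between cultures of the same genotype. Ezh2-deficient replicates 2 and 3 and WT replicates 3 and 5 were low for most of the 37 genes, and the other 5 libraries were high. The SE of the log2 fold change had a median of 0.40 over the 37 genes, against 0.13 over all tested genes. For 24 of the 35 genes that did not pass, the 95% interval of the fold change reached a 2-fold change in at least one direction. For those 24 a 2-fold difference between genotypes is not excluded. The interval stayed within 2-fold for Bnip3l, Eno1, Gapdh, Hif1a, Higd1a, Hk1, Mxi1, P4ha1, Pfkfb4, Pfkm and Vhl. The median log2 fold change of the 37 genes was -0.19, with 13 above and 24 below 0, against 0.00 over all tested genes. It was -0.06 without Ezh2-deficient replicate 2 and -0.05 without replicate 3, against -0.41 without replicate 1 and -0.43 without replicate 4. It was -0.32 without WT replicate 3 and -0.36 without replicate 5, against -0.11 without replicate 1, -0.19 without replicate 2 and -0.04 without replicate 4. With the replicate number as a block, 1 gene passed as higher and 9 as lower. Of all tested genes, 11.9% and 8.15% did so (20.1% together). WT replicate 5, a low culture, has no Ezh2-deficient library of its number, so it does not inform the genotype contrast in that fit. Replicates 1 and 4 were high and replicate 3 low in both genotypes, so the block also takes up part of the spread within genotypes. The calls it adds cannot be read as evidence of a difference unless the numbers pair the libraries. The labels do not say that the numbers pair the libraries, and whether they do was not settled.

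**Figure D1:**
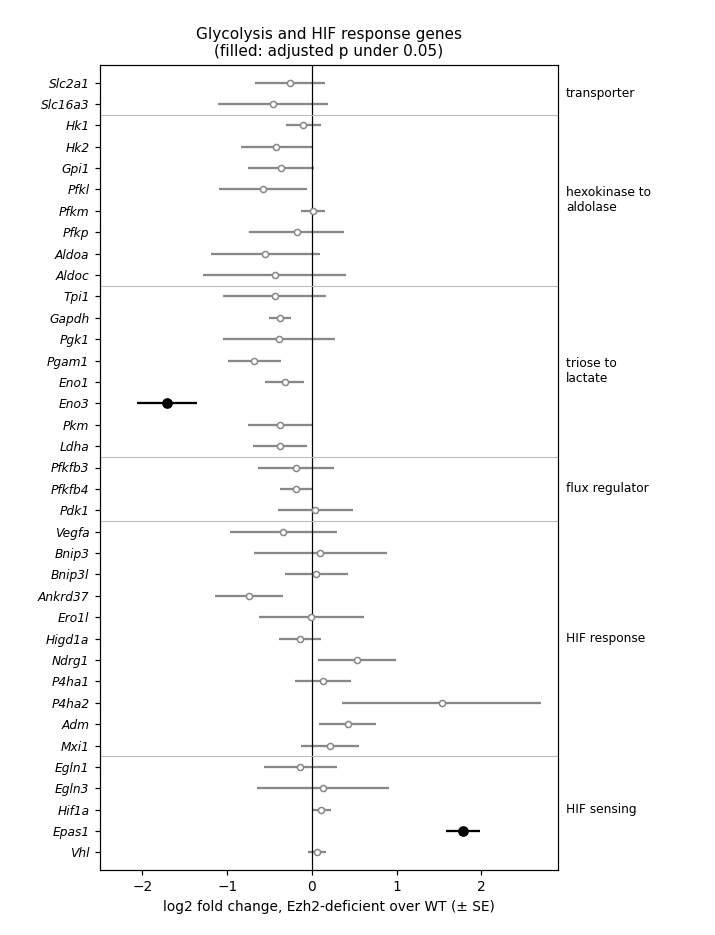
Log2 fold change, Ezh2-deficient over WT, of each of the 37 genes (point) with its SE (bar), ordered by role from top to bottom. Filled points passed an adjusted p of 0.05: Epas1 at 1.78 and Eno3 at -1.71.

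The sensing genes are described first. Hif1a, the gene of the HIF-1 alpha subunit, was at 464, 413, 444 and 538 CPM in Ezh2-deficient and 389, 475, 360, 448 and 486 CPM in WT replicates. The groups overlapped, and the log2 fold change was 0.11 (SE 0.11, 95% interval -0.13 to 0.34, adjusted p = 0.505). Hif1a also varied little between cultures, by 1.30-fold from the lowest to the highest Ezh2-deficient library and by 1.35-fold among WT libraries, and WT replicate 5, low for most of the other genes, was the highest WT library for it.

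Epas1 (chromosome 17, 86753700 to 86833410) was at 16.8, 15.9, 15.0 and 20.2 CPM in Ezh2-deficient replicates, against 5.62, 5.77, 3.53, 6.40 and 3.44 CPM in WT replicates. Every Ezh2-deficient library was above every WT library (log2 fold change 1.78, SE 0.20, adjusted p = 0.000146). It passed in all 21 alternatives, with log2 fold changes of 1.64 to 2.12 and adjusted p of 6.18e-16 to 0.0112. Some of these were fits to part of the libraries, divided after the data were examined in a way that removes spread within genotypes. Those fits gave the values 1.64, 2.12 and 0.0112 and are no added evidence. Within each genotype it shared the order of the other genes, since Ezh2-deficient replicates 2 and 3 and WT replicates 3 and 5 were its lowest libraries. Per kilobase of annotated exon, the level of Epas1 was 3.04 ± 0.404 in Ezh2-deficient and 0.886 ± 0.245 in WT Tregs (CPM per kilobase, SD, n = 4 and 5). On the same scale Hif1a was at 78.8 ± 8.98 and 73.2 ± 9.32, so Hif1a remained the far more abundant alpha subunit transcript in both groups.

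Epas1 is also known in myeloid and endothelial cells. The summed level of 4 macrophage and myeloid markers was 20.1, 26.8, 27.7 and 23.8 CPM in Ezh2-deficient and 14.2, 12.0, 8.86, 13.5 and 17.3 CPM in WT replicates. Ezh2-deficient replicates 2 and 3 and WT replicate 5 were highest of their groups for this sum and among the lowest for Epas1. WT replicate 3 was low for both. Of the 4 markers, Adgre1, the gene of the macrophage antigen F4/80, was 3.36-fold higher in Ezh2-deficient cells (adjusted p = 0.00515). It was at 2.89 to 3.49 CPM in Ezh2-deficient and 0.344 to 1.57 CPM in WT libraries. Itgam, which T cells can also express, was at 16.6 to 24.5 CPM in Ezh2-deficient and 8.52 to 16.3 CPM in WT libraries (log2 fold change 0.80, adjusted p = 0.00817). The other 2, Csf1r and Lyz2, were at most 0.130 and 0.113 CPM in Ezh2-deficient and 0.0926 and 0.0529 CPM in WT libraries. Of 3 erythroid markers, Hba-a1 was also higher, at 2.50 to 10.9 CPM in Ezh2-deficient and 0.582 to 2.99 CPM in WT libraries (adjusted p = 0.0245), with Hbb-bs at 0 in most libraries. The part of myeloid or other cells in the Epas1 level was not tested, and endothelial markers were not among the lists used here.

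Vhl, the substrate-binding subunit of the ligase that degrades HIF alpha, was at 46.7, 34.7, 38.7 and 42.5 CPM in Ezh2-deficient and 42.1, 43.9, 36.0, 37.4 and 35.2 CPM in WT replicates (log2 fold change 0.06, SE 0.11, adjusted p = 0.703). The 2 hydroxylase genes on the list are themselves known HIF targets, and both spread widely. Egln1 was at 226, 101, 95.5 and 237 CPM in Ezh2-deficient and 221, 227, 98.7, 264 and 99.9 CPM in WT replicates (log2 fold change -0.14, SE 0.43, adjusted p = 0.845). Egln3 was at 168, 30.9, 33.4 and 210 CPM in Ezh2-deficient and 148, 121, 24.9, 159 and 52.8 CPM in WT replicates (log2 fold change 0.13, SE 0.78, adjusted p = 0.929). In both genotypes the highest Egln3 library exceeded the lowest by over 6-fold, 6.80-fold in Ezh2-deficient and 6.40-fold in WT libraries.

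**Figure D2:**
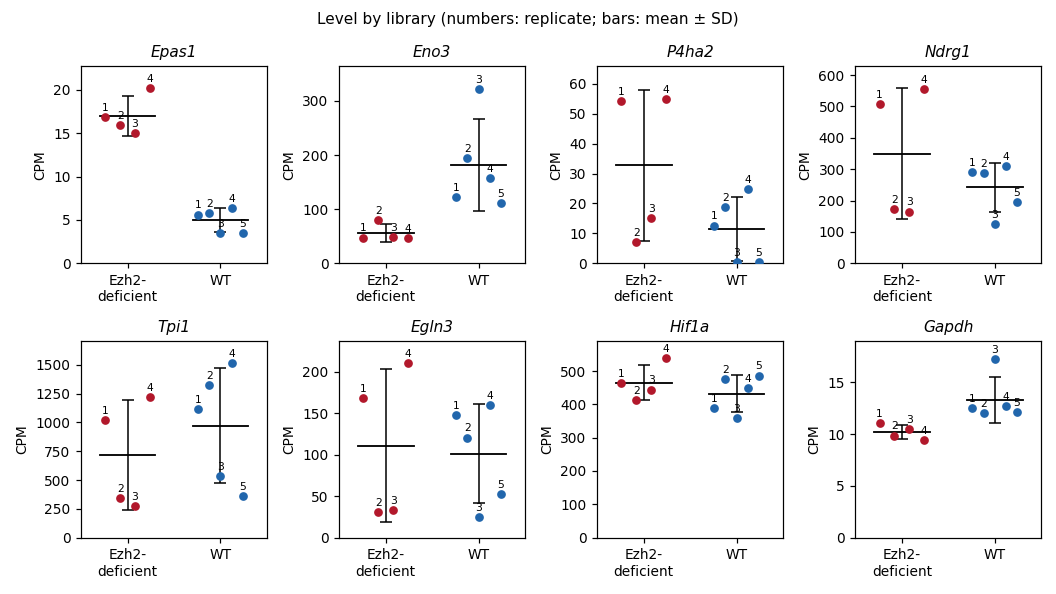
Level (CPM) of 8 of the genes in each library, with the replicate number above each point, Ezh2-deficient left and WT right; lines and bars are the mean ± SD (n = 4 and 5). Epas1 and Eno3 separate the genotypes, whereas Tpi1, Egln3 and P4ha2 hold high and low libraries within each genotype, and Hif1a is nearly level across all 9.

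Among HIF response genes, 0 of 11 passed in either direction, against 21.9% of all tested genes, and their median log2 fold change was 0.10. P4ha2, which encodes a catalytic subunit of collagen prolyl 4-hydroxylase, had the widest spread of the 37 genes. It was at 54.2, 7.08, 15.1 and 54.9 CPM in Ezh2-deficient and 12.6, 18.7, 0.516, 24.7 and 0.505 CPM in WT replicates. Ezh2-deficient replicates 1 and 4 lay above all others, Ezh2-deficient replicates 2 and 3 lay near the other WT libraries, and WT replicates 3 and 5 were lowest. The log2 fold change over all 9 libraries was 1.53 (SE 1.17, 95% interval -1.19 to 4.26, adjusted p = 0.382).

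Bnip3, a mitochondrial protein that promotes mitophagy, was at 98.6, 22.4, 23.5 and 138 CPM in Ezh2-deficient and 84.0, 93.4, 19.1, 111 and 23.4 CPM in WT replicates (log2 fold change 0.10, SE 0.78, adjusted p = 0.947). Its relative Bnip3l spread less, at 168, 86.3, 89.1 and 198 CPM in Ezh2-deficient and 150, 173, 77.9, 179 and 77.8 CPM in WT replicates (log2 fold change 0.05, SE 0.37, adjusted p = 0.948). For both genes the means of the genotypes were close and the cultures within a genotype were not.

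Vegfa, the angiogenic growth factor, was at 37.3, 8.79, 8.31 and 46.6 CPM in Ezh2-deficient and 37.9, 36.6, 20.3, 50.7 and 14.3 CPM in WT replicates (log2 fold change -0.34, SE 0.63, adjusted p = 0.741). Ero1l, an oxidase of the endoplasmic reticulum that drives disulfide formation, was at 174, 47.5, 54.2 and 208 CPM in Ezh2-deficient and 159, 162, 48.7, 184 and 54.0 CPM in WT replicates (log2 fold change -0.01, SE 0.62, adjusted p = 0.997). Both genes were high in the same 5 libraries and low in the same 4.

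Ndrg1, a stress-responsive gene of growth arrest, was at 507, 172, 165 and 554 CPM in Ezh2-deficient and 290, 288, 126, 310 and 194 CPM in WT replicates. Ezh2-deficient replicates 1 and 4 exceeded every WT library, and replicates 2 and 3 lay inside the WT range (log2 fold change 0.53, SE 0.46, adjusted p = 0.438).

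The remaining response genes did not pass either. Ankrd37, an ankyrin repeat gene induced by HIF, was at 3.43 to 10.2 CPM in Ezh2-deficient and 4.97 to 20.2 CPM in WT libraries (log2 fold change -0.74, SE 0.40, adjusted p = 0.21). P4ha1, the other collagen hydroxylase subunit on the list, was at 225 to 473 CPM in Ezh2-deficient and 168 to 412 CPM in WT libraries (log2 fold change 0.13, adjusted p = 0.818). Mxi1, an antagonist of MYC, had a log2 fold change of 0.21 (adjusted p = 0.695), and Higd1a, a mitochondrial protein of respiratory supercomplexes, one of -0.14 (adjusted p = 0.719). Adm, which encodes the peptide adrenomedullin, had the lowest level of the 37 genes in CPM, at 0.667 to 1.26 CPM in Ezh2-deficient and 0.393 to 0.979 CPM in WT libraries (log2 fold change 0.42, adjusted p = 0.395).

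Of the 16 glycolytic enzyme genes, 0 were higher and 1 was lower, against 13.1% and 8.8% of all tested genes, and 15 of 16 fold changes were below 0, with a median of -0.39. That shared sign is no independent evidence from each gene, since 14 of the 16 enzymes, all but Gapdh and Eno3, had the same libraries lowest within each group. Of the 2 transporters, Slc2a1, the main glucose carrier of activated T cells, was at 180, 98.8, 85.6 and 171 CPM in Ezh2-deficient and 228, 179, 98.7, 226 and 69.9 CPM in WT replicates (log2 fold change -0.26, SE 0.41, adjusted p = 0.691). The lactate exporter gene Slc16a3 was at 291, 105, 86.3 and 325 CPM in Ezh2-deficient and 345, 338, 138, 496 and 73.6 CPM in WT replicates (log2 fold change -0.46, SE 0.65, adjusted p = 0.651). WT replicate 5 was the lowest of all 9 libraries for both transporters.

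In the first steps, from hexokinase to aldolase, isozymes of one reaction differed in how much they varied. Hk2, the inducible hexokinase, ranged 2.44-fold over Ezh2-deficient and 2.71-fold over WT libraries, against 1.43-fold and 2.10-fold for Hk1, the constitutive form. The phosphofructokinase genes Pfkp and Pfkl ranged 3.60-fold and 2.71-fold over Ezh2-deficient and 3.51-fold and 5.08-fold over WT libraries, against 1.22-fold and 1.78-fold for Pfkm, the muscle form. On the scale of CPM per kilobase of exon, Pfkp was at 33.4 ± 20.9 in Ezh2-deficient and 37.9 ± 19.0 in WT Tregs. Pfkl was at 26 ± 12.6 and 38.9 ± 19.8, and Pfkm at 12.8 ± 1.13 and 12.8 ± 2.63 (SD, n = 4 and 5). Mean CPM were 448 and 509 for Pfkp, 173 and 260 for Pfkl, and 42.8 and 42.6 for Pfkm. The scaled levels depend on the annotated exon lengths, 13401 bases for Pfkp, 6675 for Pfkl and 3340 for Pfkm.

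Aldolase shows the pattern most clearly among these steps. Aldoa was at 1323, 383, 319 and 1532 CPM in Ezh2-deficient and 1406, 1677, 725, 2215 and 472 CPM in WT replicates (log2 fold change -0.55, SE 0.64, adjusted p = 0.579). Aldoc, the brain form, was at 99.4, 19.4, 18.2 and 149 CPM in Ezh2-deficient and 91.3, 134, 30.1, 192 and 38.3 CPM in WT replicates (log2 fold change -0.44, SE 0.84, adjusted p = 0.745). Ezh2-deficient replicates 2 and 3 were the lowest 2 of all 9 libraries for Aldoc. Gpi1, the isomerase between hexokinase and phosphofructokinase, was at 317 to 786 CPM in Ezh2-deficient and 391 to 1011 CPM in WT libraries (log2 fold change -0.36, adjusted p = 0.535).

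In the later steps, Tpi1, triosephosphate isomerase, was at 1020, 342, 274 and 1220 CPM in Ezh2-deficient and 1113, 1324, 537, 1518 and 363 CPM in WT replicates (log2 fold change -0.44, SE 0.61, adjusted p = 0.64). Pgk1, phosphoglycerate kinase, was at 106, 24.8, 28.0 and 140 CPM in Ezh2-deficient and 118, 129, 41.1, 156 and 48.3 CPM in WT replicates (log2 fold change -0.39, SE 0.66, adjusted p = 0.712). Pkm, pyruvate kinase, was at 949 to 2316 CPM in Ezh2-deficient and 1081 to 3079 CPM in WT libraries, and Ldha, lactate dehydrogenase A, at 892 to 2073 and 1180 to 2523 CPM. Neither passed (log2 fold change -0.38 for both, adjusted p = 0.502 and 0.417).

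Eno3 (chromosome 11, 70657202 to 70662513) was the exception among the enzymes. It was at 47.4, 79.9, 48.5 and 45.9 CPM in Ezh2-deficient replicates, against 123, 194, 323, 158 and 111 CPM in WT replicates. Every Ezh2-deficient library was below every WT library (log2 fold change -1.71, SE 0.35, adjusted p = 0.00938). The order of the cultures was not that of the other enzymes, since Ezh2-deficient replicate 2 and WT replicate 3, both low for most of the genes, were the highest of their groups. The call held in 20 of 21 alternatives. It was lost with only Ezh2-deficient replicates 2 and 3 and WT replicates 3 and 5 (log2 fold change -1.79, adjusted p = 0.127). That choice of libraries was made after the data were examined. The 20 include the fit to the other libraries, which were chosen in the same way. The ubiquitous enolase gene Eno1 was at 575, 375, 315 and 587 CPM in Ezh2-deficient and 625, 646, 481, 752 and 385 CPM in WT replicates (log2 fold change -0.32, SE 0.23, adjusted p = 0.344). Per kilobase of exon, Eno3 was at 31.9 ± 9.40 in Ezh2-deficient and 104 ± 49.0 in WT Tregs. Eno1 was at 86.1 ± 25.8 and 107 ± 26.9 (CPM per kilobase, SD, n = 4 and 5). Mean CPM were 55.4 and 182 for Eno3, against 463 and 578 for Eno1. The near-equal WT values depend on the annotated exon lengths, 1739 bases for Eno3 and 5379 for Eno1. Eno1 also shares much of its sequence with other genes, as described below, so the relative level of the 2 genes is uncertain.

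Some enzyme levels cannot be read from these counts. Gapdh, among the most abundant transcripts of most cells, was at only 11.1, 9.86, 10.4 and 9.43 CPM in Ezh2-deficient and 12.5, 12.0, 17.2, 12.7 and 12.1 CPM in WT replicates, and Pgam1 at 2.06 to 3.95 and 2.95 to 6.96 CPM. Of the 50-base windows in the protein-coding transcripts of Gapdh, 58.4% also occur in a transcript of another gene, and 215 annotated pseudogenes hold at least 1 of them. The share was 68% for Pgk1, 59.1% for Bnip3, 49.5% for Eno1, 41.5% for Pgam1, 24.4% for Bnip3l and Higd1a, 24.5% for Gpi1 and 23.7% for Pkm. It was 0% for Eno3, Epas1, Aldoc and P4ha2. How the authors counted reads that align to several places is not stated in these sources, and the levels of genes with large shares are uncertain. Gapdh had a log2 fold change of -0.38 (SE 0.13, adjusted p = 0.059) with no overlap between groups, and Pgam1 one of -0.68 (SE 0.31, adjusted p = 0.126). Of the alternatives, DESeq2 alone called Gapdh (log2 fold change -0.40, adjusted p = 0.0223), where it called 28.9% of all tested genes, 15.3% higher and 13.6% lower.

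The 3 flux regulators did not pass. Pfkfb3, which makes the activator of phosphofructokinase, was at 109, 46.8, 47.2 and 114 CPM in Ezh2-deficient and 140, 97.5, 63.7, 115 and 36.1 CPM in WT replicates (log2 fold change -0.19, SE 0.45, adjusted p = 0.80). Pfkfb4, of the same family, was at 7.20 to 10.3 CPM in Ezh2-deficient and 6.87 to 13.7 CPM in WT libraries (log2 fold change -0.19, SE 0.19, adjusted p = 0.502). Pdk1, which inhibits pyruvate dehydrogenase, was at 310, 126, 150 and 339 CPM in Ezh2-deficient and 284, 294, 127, 309 and 113 CPM in WT replicates (log2 fold change 0.04, SE 0.44, adjusted p = 0.966).

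**Figure D3:**
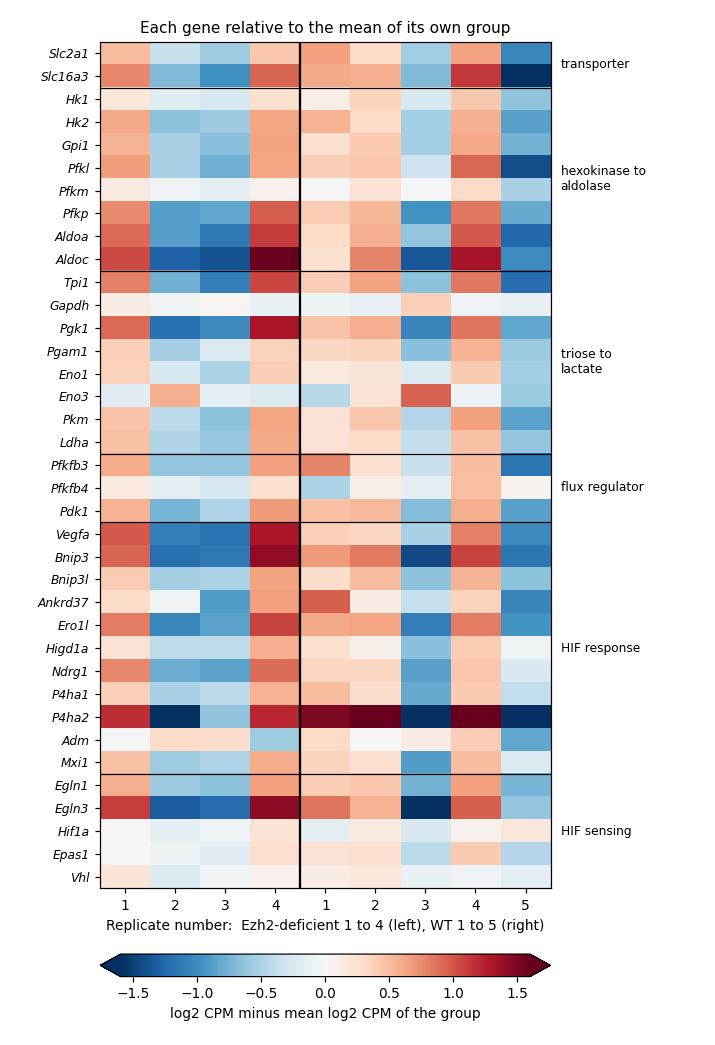
Log2 CPM of each gene (rows, by role) in each library (columns, Ezh2-deficient left and WT right), minus the mean of the library's own group. Ezh2-deficient replicates 2 and 3 and WT replicates 3 and 5 are blue (low) for most genes and the other 5 red (high), with Eno3, Gapdh, Adm, Hif1a and Pfkfb4 departing from that order.

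The spread within genotypes was measured as the SD of log2 CPM between libraries of a group, pooled over both groups. Its median was 0.68 over the 37 genes, 0.209 over all 13685 tested genes and 0.156 over the 8858 genes with a mean of at least 10 CPM, a level that 33 of the 37 reached. Of the 37 genes, 11 were above the 95th percentile of all tested genes (0.858), P4ha2 highest at 2.30, then Aldoc at 1.35, Egln3 at 1.30, Bnip3 at 1.28, Pgk1 and Slc16a3 at 1.07, Aldoa at 1.04, Vegfa at 1.03, Ero1l at 1.02, Tpi1 at 0.984 and Pfkp at 0.904. At the low end were Vhl at 0.162, Hif1a at 0.177, Gapdh at 0.176 and Pfkm at 0.259. The genes were proposed with this spread in view, so these values are a description. The median ratio of the highest to the lowest library was 2.44 in Ezh2-deficient and 2.71 in WT Tregs, against 1.34 and 1.43 over all tested genes.

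**Figure D4:**
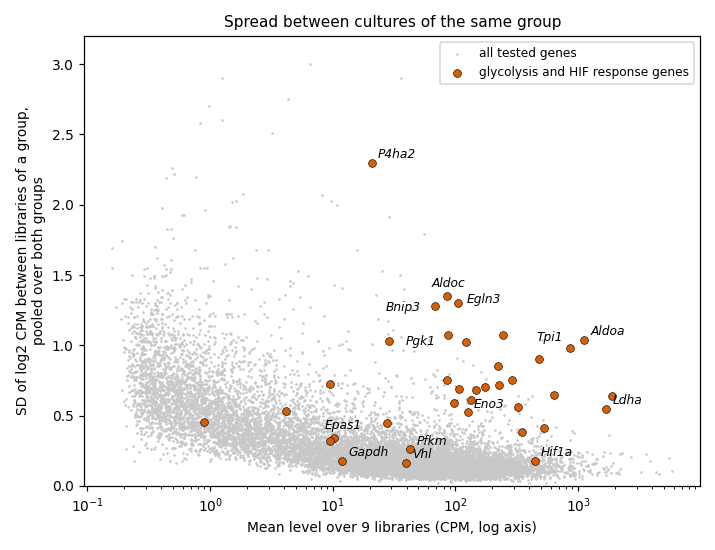
SD of log2 CPM between libraries of the same group, pooled over groups, against the mean level (CPM, log axis) for all 13685 tested genes (grey) and the 37 genes (orange). Most of the 37 lie above other genes of similar level, with P4ha2 at 2.30, whereas Hif1a, Vhl, Gapdh and Pfkm lie among them.

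The order of the libraries was nearly the same for all of these genes. Ezh2-deficient replicates 2 and 3 were the lowest 2 of their group and WT replicates 3 and 5 the lowest 2 of theirs for 32 of 37 genes, a pattern chosen after the values were seen and met by 5.57% of all tested genes. The exceptions were Gapdh, Eno3, Pfkfb4, Adm and Hif1a. The median deviation of the 37 genes from their group's mean was 0.50, -0.54, -0.61 and 0.63 log2 units in the Ezh2-deficient cultures, and 0.34, 0.33, -0.55, 0.55 and -0.75 in the WT cultures. The same median over all tested genes was within 0.01 of 0 in every library, where the scaling and the subtraction of group means hold it by construction.

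The split was also present outside these genes. In principal components of the 13648 other tested genes, the second component (16.9% of the variance) had scores of 25.98, -29.3, -25.3 and 35.7 in the Ezh2-deficient cultures and 9.17, 8.46, -29.98, 16.4 and -11.1 in the WT cultures. The first component (43.8%) separated the genotypes. Fits to the 5 libraries with positive or the 4 with negative scores were added after the data were examined. Because the scores follow the order of most of the 37 genes, such a division removes spread within genotypes by construction, and the genes it adds are no evidence of a difference. With positive scores 3 of the 37 genes were called higher and 1 lower, against 7.62% and 4.98% of the genes tested there (12.6% together). With negative scores 2 were called higher and 2 lower, against 3.08% and 1.06% (4.13% together). Epas1 was called in both fits and Eno3 in the first alone.

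Transcripts of other lymphocytes moved in part with this order. Cd8a was at 28.3, 0.936, 0.361 and 79.9 CPM in the Ezh2-deficient cultures and 35.8, 35.9, 1.98, 97.6 and 41.1 CPM in the WT cultures. Both CD8 markers were detected, with a summed level of 14.2 to 130 CPM in Ezh2-deficient and 16.2 to 147 CPM in WT libraries. Ezh2-deficient replicates 2 and 3 and WT replicate 3 were low for both Cd8a and most of the 37 genes, whereas WT replicate 5 was low for these genes with Cd8a at 41.1 CPM. Of 3 natural killer cell markers, Ncr1 was at 0 in every library, and the summed level of the list was 3.72, 0.0457, 0 and 9.66 CPM in the Ezh2-deficient cultures and 7.07, 3.33, 3.27, 6.01 and 2.43 CPM in the WT cultures. The same 4 cultures were the lowest of their groups for that sum, with WT replicates 2 and 3 nearly level at 3.33 and 3.27 CPM. The 2 detected markers differed among WT cultures. Klrk1 was lowest in replicates 3 and 5, whereas Klrb1c was highest in replicate 3, at 1.66 CPM. The summed level of 3 B cell markers was 3.30, 0.571, 0.632 and 6.42 CPM in the Ezh2-deficient cultures, low in replicates 2 and 3, and 5.03 to 7.72 CPM in the WT cultures. The part of CD8 T cells, natural killer cells and B cells in the spread was not tested. The labels give no culture date, cell density or harvest time, so handling and batch cannot be told apart from other differences between cultures.

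Promoters are shown because the genes with the widest spread kept the same order of libraries. RefSeq windows on GRCm38.p6, from 250 bases before to 50 after a transcription start, were found for 34 of the 37 genes by symbol, not for Bnip3l, Ndrg1 and Epas1. The windows below are those of the 4 widest-spread genes with a single listed start, then of Tpi1, which followed the same order, and of Eno3, which did not. They are written 5′ to 3′ on the strand of the gene, and capitals mark the core letters bound by HIF, ACGTG or GCGTG, read on either strand.
P4ha2, chr11:54100674-54100973, plus strand: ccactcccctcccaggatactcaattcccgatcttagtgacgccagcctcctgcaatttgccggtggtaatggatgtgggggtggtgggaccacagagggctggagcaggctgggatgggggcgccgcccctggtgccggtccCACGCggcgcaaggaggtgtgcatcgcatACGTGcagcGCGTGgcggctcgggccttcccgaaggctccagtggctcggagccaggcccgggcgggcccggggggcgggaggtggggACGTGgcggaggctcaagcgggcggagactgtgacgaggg
Egln3, chr12:54203825-54204124, minus strand: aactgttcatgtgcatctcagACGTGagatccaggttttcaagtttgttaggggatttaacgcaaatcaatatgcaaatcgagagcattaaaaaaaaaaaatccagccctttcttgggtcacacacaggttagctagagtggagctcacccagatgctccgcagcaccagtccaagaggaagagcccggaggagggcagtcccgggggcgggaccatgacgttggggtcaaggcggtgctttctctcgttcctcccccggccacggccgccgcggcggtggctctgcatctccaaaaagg
Bnip3, chr7:138909457-138909756, minus strand: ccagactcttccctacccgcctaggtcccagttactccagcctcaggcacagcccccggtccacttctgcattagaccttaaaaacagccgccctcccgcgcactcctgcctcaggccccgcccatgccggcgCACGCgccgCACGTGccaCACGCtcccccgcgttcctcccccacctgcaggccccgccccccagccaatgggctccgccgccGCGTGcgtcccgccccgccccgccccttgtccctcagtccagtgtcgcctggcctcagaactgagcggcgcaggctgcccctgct
Pgk1, chrX:106186850-106187149, plus strand: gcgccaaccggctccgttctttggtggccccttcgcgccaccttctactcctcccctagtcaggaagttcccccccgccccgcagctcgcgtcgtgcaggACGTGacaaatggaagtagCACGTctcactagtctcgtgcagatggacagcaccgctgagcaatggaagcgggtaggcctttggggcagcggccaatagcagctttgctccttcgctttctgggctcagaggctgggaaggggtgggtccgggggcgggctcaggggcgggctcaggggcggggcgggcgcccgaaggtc
Tpi1, chr6:124814109-124814408, minus strand: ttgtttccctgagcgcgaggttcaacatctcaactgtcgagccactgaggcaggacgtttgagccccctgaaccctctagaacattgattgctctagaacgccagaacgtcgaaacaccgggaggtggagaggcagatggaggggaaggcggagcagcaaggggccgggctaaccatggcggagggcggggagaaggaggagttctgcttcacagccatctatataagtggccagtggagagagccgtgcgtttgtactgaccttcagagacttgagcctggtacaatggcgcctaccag
Eno3, chr11:70656926-70657225, plus strand: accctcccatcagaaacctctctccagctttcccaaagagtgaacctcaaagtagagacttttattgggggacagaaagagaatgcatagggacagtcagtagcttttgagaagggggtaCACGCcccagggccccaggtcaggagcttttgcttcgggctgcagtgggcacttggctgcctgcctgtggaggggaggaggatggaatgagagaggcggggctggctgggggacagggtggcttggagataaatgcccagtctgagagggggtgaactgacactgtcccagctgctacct

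Bnip3 has 5 matches in its window, 2 of ACGTG and 3 of GCGTG. Both ACGTG matches are 1 CACGTG palindrome read on either strand, and these are also the E-box letters bound by MYC. P4ha2 has 4 matches, Pgk1 2, Egln3 1 and Eno3 1, and Tpi1 has none. The letters were common. ACGTG was present in 56% of the 50 windows of the 34 genes found (28 windows). It was present in 19.6% of all 32851 windows and in 26.7% of 9055 windows of genes with a mean of at least 10 CPM. GCGTG was present in 56%, 32.4% and 53.1% of the same windows. Genes with several listed starts count more than once. The list was built with known HIF targets, so its higher share of ACGTG is no independent evidence. A match is a description of the letters and not evidence of binding, and the windows leave out more distant elements.

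Other genes of the pathway were read from lists by function. Of 14 genes of the HIF machinery outside the list above, 3 rose and 2 fell (35.7% together, against 21.9% of all tested genes), with a median log2 fold change of 0.05. Cited2, which competes with HIF for its coactivator, rose to 93 ± 9.28 CPM in Ezh2-deficient, against 66.1 ± 8.62 CPM in WT Tregs (log2 fold change 0.49, adjusted p = 0.00726). Ep300, that coactivator, rose by 0.40, and Siah1a, a ubiquitin ligase known to act on HIF hydroxylases, rose by 0.48 (adjusted p = 0.0204 and 0.00944). Egln2, the third HIF prolyl hydroxylase, was at 39.0, 51.1, 41.6 and 38.8 CPM in Ezh2-deficient and 51.3, 51.3, 74.1, 66.8 and 49.5 CPM in WT replicates (log2 fold change -0.46, adjusted p = 0.0331). The groups overlapped through Ezh2-deficient replicate 2 and WT replicate 5, and Egln2 did not share the order of Egln1 and Egln3. Hif3a, a further alpha subunit gene, had the widest spread of these 14, at 4.06, 0.868, 0.843 and 4.26 CPM in Ezh2-deficient and 2.91, 3.83, 2.21, 6.06 and 2.71 CPM in WT replicates, with the same 4 libraries lowest (log2 fold change -0.49, adjusted p = 0.523).

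Of 49 further hypoxia-induced genes, 44 were tested, of which 6 rose and 4 fell, with a median log2 fold change of 0.17. That is 22.7%, near the 21.9% of all tested genes. The 4 with the smallest adjusted p were the transferrin receptor gene Tfrc and the stress kinase-like gene Trib3, which fell by 1.07 and 1.12 on the log2 scale, and the small GTPase gene Rab20 and the carbonic anhydrase gene Car12, which rose by 1.35 and 0.71 (adjusted p = 0.000398, 0.00342, 0.00271 and 0.00287). None of these 4 had the order of libraries seen above. Ak4, an adenylate kinase of mitochondria, had the widest spread of that list and did follow it, at 39.6, 3.27, 4.43 and 49.9 CPM in Ezh2-deficient and 46.9, 41.0, 6.17, 60.6 and 4.28 CPM in WT replicates (log2 fold change -0.38, adjusted p = 0.837). Stc2 and Plod2 had the same 4 libraries lowest.

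The pentose phosphate branch, which makes NADPH and ribose, was steadier between cultures. Of 8 pentose phosphate genes 7 were tested, of which 0 rose and 4 fell (57.1%, against 8.8% of all tested genes that fell), with a median log2 fold change of -0.40 and a median within-group SD of 0.182. Rpia, which makes ribose phosphate, was at 47.8, 45.0, 37.9 and 44.5 CPM in Ezh2-deficient and 63.6, 69.9, 91.3, 73.0 and 72.8 CPM in WT replicates (log2 fold change -0.76, SE 0.11, adjusted p = 0.000701). The dehydrogenase gene Pgd, the transketolase gene Tkt and the first enzyme gene G6pdx fell by 0.62, 0.56 and 0.35 on the log2 scale (adjusted p = 0.00282, 0.00504 and 0.00618). Of 25 pyruvate dehydrogenase and citric acid cycle genes, 1 rose and 1 fell (8% together, against 21.9% of all tested genes), with a median of -0.14 and a within-group SD of 0.101. They were Pcx, pyruvate carboxylase, at 0.64 (adjusted p = 0.0498), and Suclg2, a succinate-CoA ligase subunit, at -0.46 (adjusted p = 0.0108).

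Of 29 other isozymes and transporters 18 were tested, of which 3 rose and 5 fell (44.4% together, against 21.9% of all tested genes). Pdk2, a second kinase that inhibits pyruvate dehydrogenase, was at 11.1, 14, 14.7 and 12.0 CPM in Ezh2-deficient and 5.51, 6.23, 5.57, 7.01 and 5.33 CPM in WT replicates (log2 fold change 1.13, SE 0.14, adjusted p = 0.000276). The groups did not overlap for Pdk2 and did for Pdk1. Slc2a9, a urate carrier of the glucose transporter family, rose by 0.50, whereas Pfkfb1 and Tigar, both of which act on the activator of phosphofructokinase, fell by 0.57 and 0.37 on the log2 scale (adjusted p = 0.0185, 0.018 and 0.0212). Slc2a3, the high-affinity glucose carrier, was at 292, 125, 158 and 361 CPM in Ezh2-deficient and 151, 163, 58.3, 201 and 71.6 CPM in WT replicates, with replicates 2 and 3 and replicates 3 and 5 again the lowest of their own groups (log2 fold change 0.86, SE 0.46, adjusted p = 0.218). Of 13 glycogen and gluconeogenesis genes 10 were tested, of which 1 rose and 3 fell (40% together, against the same 21.9%). Those called were Ugp2, at a log2 fold change of 0.42, and Pygb, G6pc3 and Pck2, at -0.46, -0.72 and -0.41 (adjusted p = 0.0191, 0.00175, 0.00366 and 0.0244). Pygl, the liver-type glycogen phosphorylase, was at 86.3, 27.2, 34.7 and 111 CPM in Ezh2-deficient and 21.1, 25.4, 1.92, 28.1 and 7.07 CPM in WT replicates, with the same replicates lowest within each group and a log2 fold change of 1.96 that did not pass (SE 0.77, adjusted p = 0.107). Pgm1 and Gbe1, which act in glycogen synthesis, also had these replicates lowest within each group.

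Of 20 regulators of glucose use, 5 rose and 2 fell (35% together, against 21.9% of all tested genes). Txnip, which restrains glucose uptake, rose to 665 ± 66.2 CPM in Ezh2-deficient, against 372 ± 74.1 CPM in WT Tregs (log2 fold change 0.84, SE 0.14, adjusted p = 0.0019). Mlxip, a glucose-responsive transcription factor that induces Txnip, rose by 0.38, and the MYC antagonists Mxd1 and Mxd4 rose by 0.49 and 0.69 (adjusted p = 0.00295, 0.00493 and 0.00532). The median within-group SD of these 20 genes was 0.154, against 0.68 for the 37 glycolysis and HIF response genes.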

How the data were processed

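The authors deposited raw counts for 43432 Ensembl gene identifiers, with no normalization. STAR and the build GRCm38 are named, per the submitters' processing notes. The counting tool, its use of strand and its annotation are not stated in these sources. Genes that overlap others are therefore uncertain (Pfkp with Pitrm1, Ankrd37 with Lrp2bp, Bnip3 with an antisense gene). Symbols, positions and exon lengths came from GENCODE M21, which held 42548 of the identifiers. Levels are CPM, and CPM per kilobase used the union of annotated exons.

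Genes were filtered with edgeR's default, scaled with trimmed means of M-values, then tested with its robust quasi-likelihood test (edgeR 4.0.16, R 4.3.3), two-sided. All adjusted p values are Benjamini-Hochberg values of that test unless another tool is named. The test was checked on simulated counts with known fold changes. Log2 CPM used a prior count of 2. No 2 libraries of a group were duplicates (chi-square over genes, at least 21.9 per degree of freedom). The design text calls them biological replicates. Reads carry no molecular identifiers.

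The members and lists were chosen with earlier results of these data known. Per-library values were given for genes past the threshold, the 10 with the highest within-group SD, Hif1a, Epas1 and Vhl, and for others chosen after their values were seen. Of other lists, the genes named were among up to 4 with the smallest adjusted p and the 3 with the highest within-group SD at a mean of at least 1 CPM, and not all of them are printed. Alternatives were 3 other scalings (total count, upper quartile, relative log expression), no filter on low counts, a filter of 1 CPM in 4 libraries, limma-voom with or without quality weights (limma 3.58.1), DESeq2 1.42.0, the replicate number as a block, 1 surrogate variable (sva 3.50.0), each library left out, and, added after the data were examined, the libraries with positive or with negative second-component scores. Shared 50-base windows were counted in GENCODE M21 transcripts.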

Additional observations from a re-analysis of the deposited data

Results flagged for a closer look

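In the 74 groups of values tested (37 genes, each in 4 Ezh2-deficient and in 5 WT libraries), 2 held a library that stood apart by Dixon's gap test, where chance flags about 1 in 20 groups. Eno3 was at 79.9 CPM in Ezh2-deficient replicate 2, the highest of its group, with a gap of 0.924 of the group's range. Gapdh was at 17.2 CPM in WT replicate 3, the highest of its group, with a gap of 0.861 of the range.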

How the results depend on the processing

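The calls of 1 higher gene (Epas1) and 1 lower gene (Eno3) were the same in 9 of 9 fits that left out a library. They were also the same under every scaling, filter, limma-voom and the surrogate variable. That variable was at 0.232, 0.0184, 0.38 and -0.562 in Ezh2-deficient and -0.454, 0.287, 0.307, 0.0984 and -0.307 in WT replicates. It did not follow the split into high and low cultures, so that fit did not adjust for the split. DESeq2 called 2 genes lower (with Gapdh), and the libraries with positive scores gave 3 higher, those with negative scores 2 higher and 2 lower. Counts over all genes were 1972 (without Ezh2-deficient replicate 3) to 3168 with a library left out, 1764 in the libraries with positive and 570 in those with negative scores. The median within-group SD of the 37 genes was 0.612 to 0.716 in Ezh2-deficient and 0.554 to 0.693 in WT Tregs with a library left out. The division by score follows the order of most of the 37 genes and removes spread by construction. Of the fold changes of 14 genes, those near 0 changed sign. Egln3 was at -0.06 and -0.56 in limma-voom without and with quality weights, -0.30 in the libraries with negative scores and -0.41 to 0.41 with a library left out. Bnip3 was at -0.52 with quality weights, -0.02 with the surrogate variable and -0.48 to 0.37 with a library left out. Ero1l was at 0.00 with the 1 CPM filter, 0.18 in the libraries with positive scores and -0.43 to 0.23 with a library left out. Vhl was at -0.01 with quality weights and -0.03 to 0.11 with a library left out, Vegfa at 0.00 in the libraries with positive scores, and Hif1a at -0.01 in those with negative scores. The median of the 37 fold changes was -0.48 with quality weights and -0.40 with the block. The causes were not tested.

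With the replicate number as a replicate block, 1 gene was higher and 9 were lower (Ankrd37, Eno1, Eno3, Hk2, Ldha, Pfkl, Pkm, Slc16a3 and Slc2a1), where 8.15% of all tested genes were lower, and Egln3 was at -0.20 and Bnip3 at -0.26. In that fit WT replicate 5 is alone in its block and does not inform the contrast, and the block takes up part of the spread within genotypes. Deviations of same-numbered libraries correlated across genes at 0.153, -0.0834, 0.114 and 0.187 for replicates 1 to 4. Libraries of different numbers were not compared, so these values cannot decide whether the numbers pair the libraries. The labels do not say that they do.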
